A study of Mus musculus with 6 samples.

Results

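The cytosolic ribosomal protein genes were described in N2a (neuro2a) cells, a mouse neuroblastoma line, after knockdown of 2 subunits of NF-Y. The members were all genes whose symbol is Rpl or Rps followed by a digit, with Rplp0, Rplp1, Rplp2 and Rpsa added and the Rps6k kinases and symbols ending in -ps left out. RefSeq held 95 such genes, 86 of them had a matched probe on the array, and all 86 were among the 16490 genes tested. They comprised 52 genes with large subunit symbols (Rpl) and 34 with small subunit symbols (Rps and Rpsa). No probe was matched for Rpl32l, Rpl32p, Rpl37rt, Rpl6l, Rps12l1, Rps23, Rps27rt, Rps3a2 and Rps3a3. The rule also took in Rps19bp1, which encodes a binding partner of Rps19, Rps23rg1, a retroposed relative of Rps23, and Rps4l, a transcribed relative of Rps4x.

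The ribosome is built from ribosomal RNA and a fixed set of proteins that form its large and small subunits, and nearly all of them are present in the same number of copies. The stalk of the large subunit is the exception, since Rplp0 there carries several copies of Rplp1 and Rplp2. The genes for these proteins are among the most strongly transcribed in a growing cell, and their mRNAs start with a run of pyrimidines, the terminal oligopyrimidine (TOP) tract, through which their translation is tuned by mTOR. Several of them have retrogene or paralogous copies with a narrower pattern of expression. NF-Y is a trimer of NF-YA, NF-YB and NF-YC that binds the letters CCAAT in promoters.

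Total RNA of transfected cells was hybridised to single-colour Agilent mouse arrays. The 3 YAYC arrays carried RNA of cells given a miR RNAi vector against Nfya and Nfyc, and the 3 Vector arrays carried RNA of cells given the vector without such an insert. All cells were of the same line and all went through transfection, and the sources used here describe no sorting of the transfected cells for these arrays. The sources used here do not say that the 3 arrays of a group came from separate cultures, so p-values measure only the spread between these samples. Of 15 neuroblastoma and neuron markers, 15 were well above background on all 6 arrays, and Epcam, Alb and Lum, markers of epithelium, liver and fibroblasts, were not well above background on any. The other 4 of 5 fibroblast markers, 2 of 4 immune markers (Ptprc and Cd3e) and Krt8 were well above background on all 6.

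Both targeted genes were lower on the YAYC arrays, and Nfyb, the gene for the remaining subunit, was higher. Nfyc stood at 3.997, 3.933 and 3.984 on the Vector arrays and at 2.12, 2.20 and 2.18 on the YAYC arrays, so that it fell by 1.81 on the log2 scale (SE 0.045, adjusted p = 0.00032). Nfya stood at 0.14, 0.15 and 0.21 against -0.66, -0.52 and -0.59 (change -0.76, SE 0.055, adjusted p = 0.0013). Nfyb stood at 1.0002, 1.053 and 1.183 against 1.906, 1.899 and 1.923, a change of 0.83 (SE 0.060, adjusted p = 0.0013). After quantile normalization, which makes the whole distribution of signals equal on all arrays, the changes of Nfyc, Nfya and Nfyb were -1.76, -0.74 and 0.87. Levels here are log2 of the processed signal minus the 75th percentile of the same array, a change is the mean of the 3 YAYC arrays minus that of the 3 Vector arrays, and adjusted p-values come from limma over all 42126 probes tested.

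Promoter windows are shown for 5 members because they carry calls described below and differ in whether they hold the NF-Y motif. Each is the RefSeq sequence of build GRCm38.p6 from 250 bases before to 50 bases after the annotated start, with CCAAT or its reverse complement ATTGG and any run of at least 7 pyrimidines (C or T) that covers the start in capitals.
Rplp0 promoter, chr5:115559217-115559516, strand plus: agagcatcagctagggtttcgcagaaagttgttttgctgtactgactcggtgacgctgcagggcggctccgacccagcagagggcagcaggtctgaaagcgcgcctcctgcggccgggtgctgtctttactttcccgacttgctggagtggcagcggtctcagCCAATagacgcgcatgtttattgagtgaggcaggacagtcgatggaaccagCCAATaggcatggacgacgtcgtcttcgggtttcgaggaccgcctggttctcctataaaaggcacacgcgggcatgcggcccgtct
Rpsa promoter, chr9:120127516-120127815, strand plus: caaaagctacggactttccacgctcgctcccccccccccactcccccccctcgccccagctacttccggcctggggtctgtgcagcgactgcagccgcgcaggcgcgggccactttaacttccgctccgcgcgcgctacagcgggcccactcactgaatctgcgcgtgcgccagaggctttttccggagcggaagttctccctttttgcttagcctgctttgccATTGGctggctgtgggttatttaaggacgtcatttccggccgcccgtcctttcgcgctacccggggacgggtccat
Rpl28 promoter, chr7:4792715-4793014, strand plus: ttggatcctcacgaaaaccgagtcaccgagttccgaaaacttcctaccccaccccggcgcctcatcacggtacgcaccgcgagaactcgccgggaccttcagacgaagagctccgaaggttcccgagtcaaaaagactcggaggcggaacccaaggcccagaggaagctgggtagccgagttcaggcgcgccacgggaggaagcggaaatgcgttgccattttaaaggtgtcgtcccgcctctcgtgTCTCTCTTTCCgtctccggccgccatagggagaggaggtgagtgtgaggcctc
Rps7 promoter, chr12:28635904-28636203, strand minus: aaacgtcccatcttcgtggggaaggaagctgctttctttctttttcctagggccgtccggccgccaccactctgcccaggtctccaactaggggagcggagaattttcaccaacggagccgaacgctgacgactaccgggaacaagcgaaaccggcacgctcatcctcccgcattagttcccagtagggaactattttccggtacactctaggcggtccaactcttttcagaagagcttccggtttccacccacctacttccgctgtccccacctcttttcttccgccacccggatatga
Rpl10l promoter, chr12:66284352-66284651, strand minus: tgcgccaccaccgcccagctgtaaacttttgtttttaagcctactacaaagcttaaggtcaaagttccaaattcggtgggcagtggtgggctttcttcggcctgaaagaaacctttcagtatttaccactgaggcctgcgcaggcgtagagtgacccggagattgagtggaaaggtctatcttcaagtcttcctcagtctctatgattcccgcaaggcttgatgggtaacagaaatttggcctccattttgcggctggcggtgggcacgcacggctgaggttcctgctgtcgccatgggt
Rplp0 held CCAAT at 87 and at 36 bases before the start, and Rpsa held ATTGG at 26 bases before it, each counted to the first letter of the motif. The windows of Rpl28, Rps7 and Rpl10l held the letters on neither strand. Rpl28 began inside a run of 11 pyrimidines.

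Most members differed little between the groups, by an amount that depended on the scaling of the arrays. Under both scalings 5 of the 86 members passed the test as lower and 1 as higher. Over all 16490 genes 2384 passed as lower and 2441 as higher under both, a larger share in each direction. After 75th percentile scaling, 80 of 86 members had a change below 0, with a median of -0.089 against 0.0053 over all genes tested. After quantile normalization, 46 of 86 lay below 0, with a median of -0.0033 against 0.010 over all genes. At an adjusted p under 0.05, 8 members fell and 1 rose after 75th percentile scaling. That is 9.30% and 1.16% of the members, beside 15.8% lower and 15.7% higher over all genes. After quantile normalization 5 members fell and 2 rose (5.81% and 2.33%, against 15.5% and 18.6% over all genes). Past a fold change of 1.5 as well, there was 1 member, Rpl10l, against 8.90% of all genes. After quantile normalization there was 0 in limma, against 8.74%. At an unadjusted p under 0.05, 25 of the 86 members were lower and 2 higher after 75th percentile scaling. Over all 16490 genes 3781 were lower and 3832 higher at that p. After quantile normalization 7 members were lower and 3 higher, against 3615 and 4231 of all genes.

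**Figure D1:**
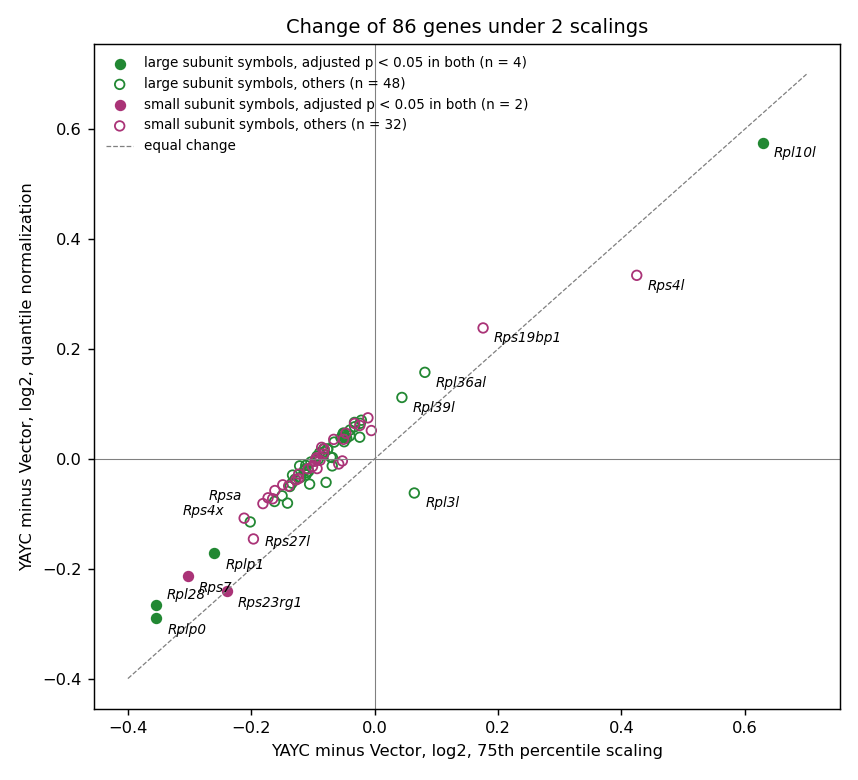
Change of each of the 86 members (YAYC minus Vector, log2) after 75th percentile scaling on the horizontal axis and after quantile normalization on the vertical axis, coloured by subunit, with the diagonal marking an equal change. Most members form a tight band from about -0.2 to 0 on the horizontal axis and centred near 0 on the vertical axis, with Rpl28, Rplp0, Rps7, Rplp1 and Rps23rg1 (filled) below it and Rpl10l far above it.

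The separation of the arrays depended on the scaling too. After 75th percentile scaling all 3 YAYC arrays lay below all 3 Vector arrays for 52 members (60.5%, against 27.1% of all genes) and above them for 3 (3.49%, against 27.7%). After quantile normalization the counts were 16 lower (18.6%, against 25.6%) and 14 higher (16.3%, against 30.5%). The mean level of the 86 members was 7.502, 7.470 and 7.428 on the Vector arrays and 7.398, 7.392 and 7.367 on the YAYC arrays after 75th percentile scaling, so the groups did not overlap. After quantile normalization it was 7.43, 7.42 and 7.43 against 7.43, 7.42 and 7.42, and they did.

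The members sat at the bright end of the arrays, where the scalings differed, as they also did at the dim end. Of the 86, 80 lay in the brightest 1649 of the 16490 genes, and 85 were well above background on all 6 arrays, the exception being Rpl3l. Their median processed signal per array was between 207489 and 237883, and no spot was flagged as saturated. Among those 1649, the genes that are not members had a median change of -0.030 after 75th percentile scaling and 0.041 after quantile normalization. That group reaches down to genes dimmer than most members, so it is not matched to them for brightness. In the brightest of 40 bins of all genes, members included, the medians were -0.067 and 0.025. In the dimmest bin they were 0.024 and -0.078. The gap between the 99th and the 75th percentile of an array's signals, on the log2 scale, was 7.68, 7.64 and 7.59 on the Vector arrays and 7.56, 7.53 and 7.51 on the YAYC arrays. The gap and the member mean put the 6 arrays in the same order. The 2 orders are not independent, since both values subtract the array's 75th percentile. The members' median signal also lay above the 99th percentile, which was between 132434 and 155094. The part of this gap in the lower member mean was not tested. In bulk RNA, and with a fixed amount of RNA labelled, a lower share of these mRNAs in the total cannot be told apart from less of them per cell.

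**Figure D2:**
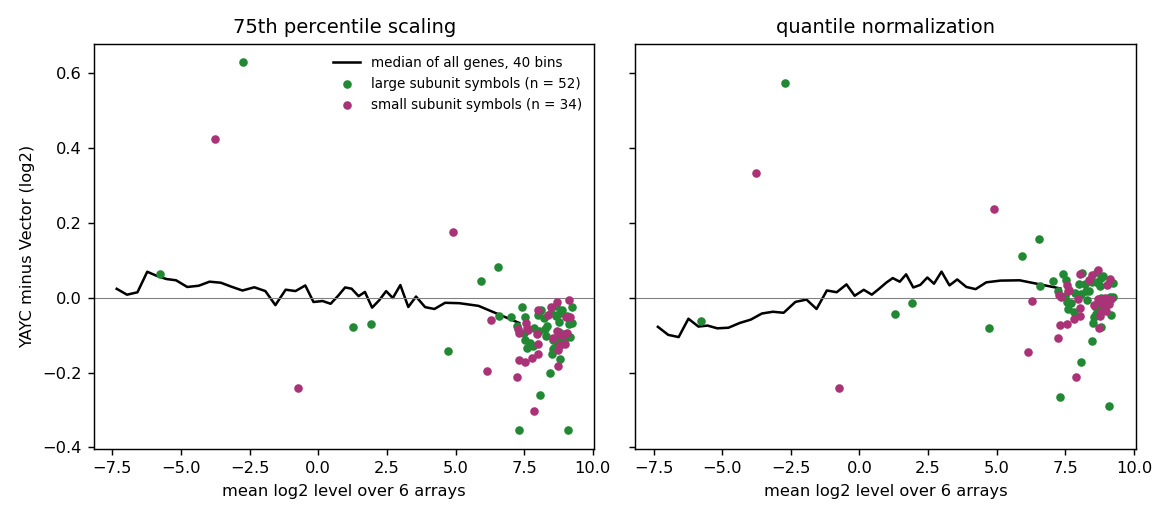
Change of the 86 members (points, coloured by subunit) against their mean log2 level over the 6 arrays, with the median change of all 16490 genes in 40 bins of level as a black line, after 75th percentile scaling (left) and quantile normalization (right). The line bends below 0 at the bright end on the left and lies above 0 there on the right, and the cloud of members moves with it.

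The stalk of the large subunit recruits elongation factors to the ribosome. Of its genes only Rplp0 had several probes, and among members with several probes it had the largest fall at the brightest. Rplp0, the scaffold of the stalk, stood at 9.34, 9.29 and 9.17 on the Vector arrays. On the YAYC arrays it stood at 8.93, 8.92 and 8.89, with no overlap. The change was -0.35 (SE 0.058, adjusted p = 0.012), a fold of 0.783, and -0.29 (adjusted p = 0.0093) after quantile normalization. The other Rplp0 probes on the array gave -0.47 (adjusted p = 0.0096) and -0.64 (adjusted p = 0.0024), so all 3 were past the threshold and the last was also past 1.5-fold.

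Rplp1, a protein at the tip of the stalk, stood at 8.26, 8.20 and 8.16 against 7.95, 7.96 and 7.93 (change -0.26, SE 0.044, adjusted p = 0.014). After quantile normalization it changed by -0.17 (adjusted p = 0.027). Rplp2, its partner, stood at 8.78, 8.78 and 8.75 against 8.62, 8.69 and 8.66. Its arrays did not overlap on that scale, but the change of -0.11 missed the threshold (SE 0.042, adjusted p = 0.13) and was -0.029 after quantile normalization, where the arrays overlapped. Whether Rplp2 changed less than Rplp0 and Rplp1 was not tested.

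Among the other large subunit genes, Rpl28 had the largest fall. It stood at 7.57, 7.48 and 7.45 against 7.16, 7.12 and 7.16, a change of -0.35 (SE 0.049, adjusted p = 0.0077), and of -0.27 (adjusted p = 0.010) after quantile normalization. The highest YAYC array was below the lowest Vector array under both scalings. Rpl14, with a change of -0.20, missed the threshold at its brightest probe (adjusted p = 0.071), while its dimmer probe gave -0.24 (adjusted p = 0.016).

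Of the small subunit genes past the threshold after 75th percentile scaling, Rps7, a protein of the body of the subunit, had the largest change. It stood at 8.07, 8.04 and 7.95 against 7.76, 7.74 and 7.67 (change -0.30, SE 0.055, adjusted p = 0.018), and it fell by 0.21 after quantile normalization (adjusted p = 0.018). Rpsa, the laminin receptor protein on the back of the small subunit, stood at 8.84, 8.80 and 8.80 against 8.66, 8.61 and 8.62. Its brightest probe changed by -0.18 (adjusted p = 0.033), and by -0.082 after quantile normalization, where it missed the threshold (adjusted p = 0.22). The other 3 Rpsa probes gave -0.27, -0.24 and -0.51, with adjusted p-values of 0.021, 0.015 and 0.031, and each of these also passed after quantile normalization.

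Rps4x, the X-linked form of the small subunit protein S4, changed by -0.21 (adjusted p = 0.040), and Rps27l, a paralogue of Rps27 known as a p53 target, by -0.20 (adjusted p = 0.033). Neither passed after quantile normalization (adjusted p = 0.14 and 0.055). Rps3a1 changed by -0.17 and missed the threshold in both (adjusted p = 0.083 and 0.25). Rps23rg1, which is not a structural protein of the ribosome, stood at -0.66, -0.58 and -0.64 against -0.93, -0.79 and -0.88. It fell by 0.24 under both scalings (adjusted p = 0.033 and 0.024). In all, 5 of the 86 members fell under both scalings: Rplp0, Rplp1, Rpl28, Rps7 and Rps23rg1. Over all 16490 genes 2384 did.

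**Figure D3:**
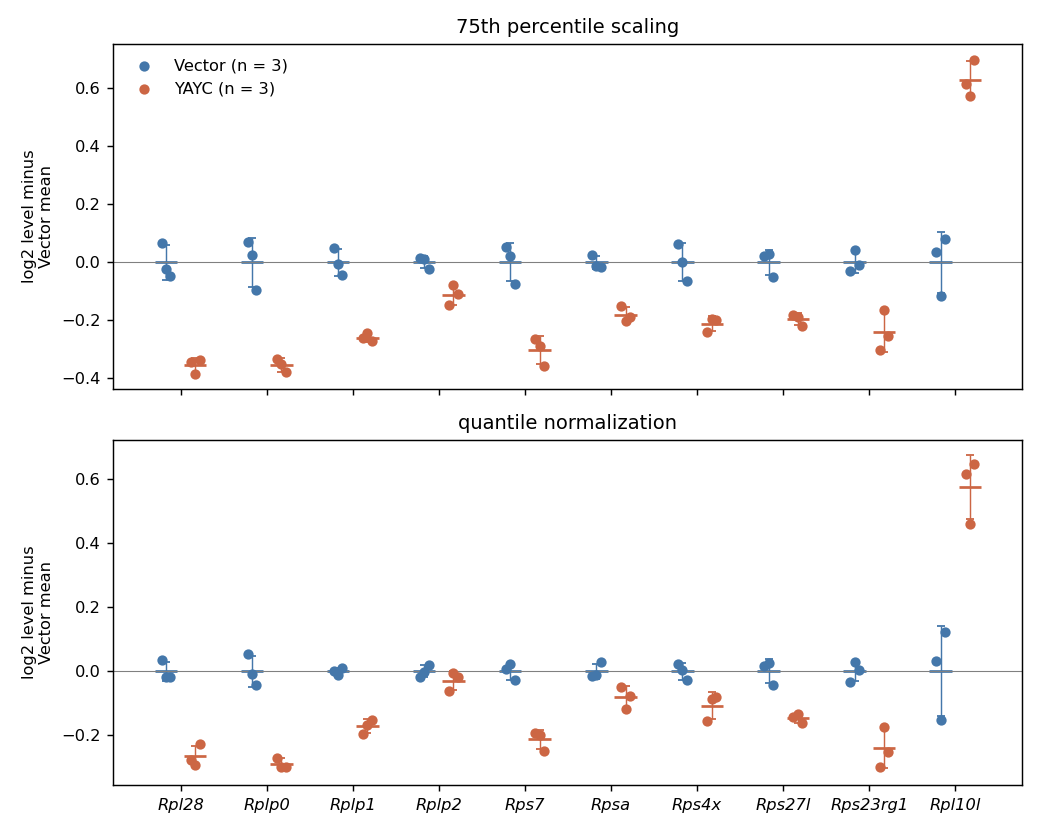
Level of 10 members on each of the 6 arrays (points), minus the mean of that gene's Vector arrays, on the log2 scale, with the group mean (line) and SD (bar), after 75th percentile scaling (top) and quantile normalization (bottom). The YAYC points of Rpl28, Rplp0, Rplp1, Rps7 and Rps23rg1 lie below the Vector points and those of Rpl10l above them in both panels, while Rplp2 overlaps in the lower one.

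The calls depended on how the position of the arrays on the slide was treated. The 3 Vector arrays and YAYC array 1 were in one row of the slide and YAYC arrays 2 and 3 in the other. With the slide row as a block, the change is that of YAYC array 1 from the mean of the 3 Vector arrays in the same row, so it rests on 1 YAYC array. In that fit 0 members passed by limma (6 lower and 2 higher at an unadjusted p under 0.05). The changes were -0.33 for Rplp0 (adjusted p = 0.11), -0.34 for Rpl28 (adjusted p = 0.076), -0.26 for Rps7 (adjusted p = 0.14), -0.26 for Rplp1 (adjusted p = 0.10) and 0.62 for Rpl10l (adjusted p = 0.053). Leaving out 1 array lowered the count of falls from 8 to between 1 (without Vector array 2 or YAYC array 3) and 6 (without Vector array 3). Over all genes 10.4% to 12.7% were lower with 1 array left out, against 15.8% with all 6.

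Of the members that rose, Rpl10l, an autosomal retrogene of Rpl10 known from male germ cells, stood apart. It stood at -3.00, -3.16 and -2.96 on the Vector arrays and at -2.42, -2.47 and -2.34 on the YAYC arrays, all well above background. The change was 0.63 (SE 0.072, adjusted p = 0.0043), a fold of 1.55, and 0.57 (adjusted p = 0.012) after quantile normalization. Its other, dimmer probe gave 0.29 (adjusted p = 0.091) and 0.19 after quantile normalization (adjusted p = 0.32). Rpl10, its X-linked parent, stood at 9.13, 9.16 and 9.01 against 9.05, 9.05 and 9.06, a change of -0.049 (adjusted p = 0.57) and of 0.039 after quantile normalization (adjusted p = 0.55). Signal from near-identical pseudogene copies cannot be told apart from that of a named gene, since probe sequences were not used here.

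Rps19bp1, a regulator of the deacetylase Sirt1, stood at 4.86, 4.80 and 4.77 against 5.018, 5.0003 and 4.937. Its arrays did not overlap under either scaling, and it passed after quantile normalization (change 0.24, adjusted p = 0.015) but not after 75th percentile scaling (change 0.18, adjusted p = 0.058). Rps4l stood at -4.32, -3.70 and -3.93 against -3.35, -3.68 and -3.64, a change of 0.42 with a wide error (SE 0.19, adjusted p = 0.17), and of 0.33 after quantile normalization (adjusted p = 0.30).

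The remaining paralogue pairs gave no call at their brightest probes. Rpl22 changed by -0.040 and Rpl22l1, its close relative, by -0.14 (adjusted p = 0.60 and 0.089), and after quantile normalization by 0.042 and -0.081. Rpl3 changed by -0.13, and Rpl3l, the form of heart and skeletal muscle, by 0.064 with an SE of 0.15 on spots near background (adjusted p = 0.089 and 0.80), and after quantile normalization by -0.030 and -0.062. Rpl7 and Rpl7l1 changed by -0.15 and -0.069 (adjusted p = 0.064 and 0.39), and by -0.067 and -0.013 after quantile normalization. For Rpl36a and Rpl36al the changes were -0.052 and 0.081 (adjusted p = 0.46 and 0.43). For Rpl39 and Rpl39l they were -0.050 and 0.044 (adjusted p = 0.46 and 0.55), and Rps27 changed by -0.033 (adjusted p = 0.67). Rpl36a, Rpl39 and Rps27 turned to 0.045, 0.031 and 0.064 after quantile normalization. After quantile normalization all 3 YAYC arrays of Rpl36al and of Rpl39l lay above the Vector arrays, with changes of 0.16 and 0.11 that did not pass (adjusted p = 0.099 and 0.14). Whether the members of any pair differed in their change was not tested.

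Large and small subunit genes differed little in their median change. The median change was -0.080 over the 52 large and -0.095 over the 34 small subunit genes, and 0.0025 and -0.0069 after quantile normalization. After 75th percentile scaling 3 large subunit genes fell (5.77%) and 1 rose, and 5 small subunit genes fell (14.7%). Over all genes 15.8% were lower. All 3 YAYC arrays lay below the Vector arrays for 51.9% of the large and 73.5% of the small subunit genes, against 27.1% of all genes. After quantile normalization these separated shares were 15.4% and 23.5%, against 25.6%. The mean of the large minus the mean of the small subunit genes, a difference within each array that a common shift of both leaves unaltered, was 0.024, -0.0015 and 0.0060 on the Vector arrays. It was 0.016, 0.018 and 0.025 on the YAYC arrays. The difference between the groups was 0.010. The SD was 0.013 among the Vector arrays, 0.0046 among the YAYC arrays and 0.0098 when pooled over both groups. The difference turned to -0.0045 when all probes of a gene were averaged. The values compare changes and not amounts, since probes differ in their response.

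**Figure D4:**
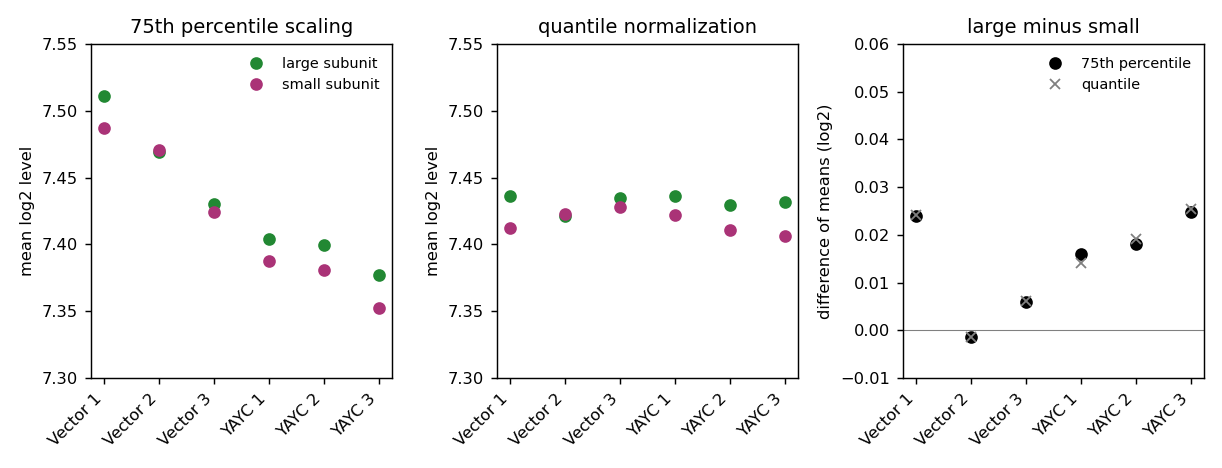
Mean log2 level of the 52 large and 34 small subunit genes on each of the 6 arrays after 75th percentile scaling (left) and quantile normalization (middle), and the large minus small difference on each array under both (right). The left panel shows both subunits lower on the YAYC arrays, the middle panel shows them level, and the differences on the right lie between -0.0015 and 0.026 in both groups.

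The members were also grouped by their place in the ribosome. Of the 14 genes of the small subunit head, 0 passed in limma (3 lower and 0 higher at an unadjusted p under 0.05), with changes from -0.17 (Rps15) to -0.0054 (Rps27a), a ubiquitin fusion gene. Their median was -0.090, and 0.00066 after quantile normalization. Of 16 measured genes of the body and platform, 3 fell (Rps7, Rpsa and Rps4x), and 1 (Rps7) after quantile normalization. Over all genes 15.8% and 15.5% were lower. The 16 genes had medians of -0.10 and -0.016. Rps6, the substrate of the S6 kinases, changed by -0.15 (adjusted p = 0.064) and by -0.047 after quantile normalization.

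Of the 8 genes around the exit tunnel of the large subunit 0 passed in limma (1 lower and 0 higher at an unadjusted p under 0.05), and their medians were -0.087 and 0.0035. Rpl5 and Rpl11, which together with a small ribosomal RNA bind and restrain Mdm2, changed by -0.076 and -0.024 (adjusted p = 0.36 and 0.71), and by 0.018 and 0.039 after quantile normalization (adjusted p = 0.85 and 0.50). Of 19 genes mutated in Diamond-Blackfan anaemia, an inherited failure of red cell production, only Rps7 fell, in both scalings. Over all genes 15.8% were lower after 75th percentile scaling and 15.5% after quantile normalization. The smallest changes among all members were those of Rps27a, Rps28 (-0.011), Rpl34 (-0.022) and Rpl30 (-0.023) after 75th percentile scaling. After quantile normalization these were 0.051, 0.075, 0.070 and 0.065. 

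Several probes per gene gave a check within the same arrays. The 86 members had 173 tested probes, and 52 members had more than 1. In 45 of these 52 every probe was below 0, and the median gap between the highest and the lowest probe was 0.067. For 7 genes the gap was above 0.2, namely Rps15a, Rpl10l, Rpsa, Rps3, Rplp0, Rpl22 and Rpl6. Of the 173 member probes, 21 were called lower and 2 higher, and after quantile normalization 14 and 3. The share over all tested probes is not given here. Over all genes, read from the brightest probe, 15.8% were lower and 15.7% higher, and 15.5% and 18.6% after quantile normalization. Of the genes with several probes, every probe was called lower for 2, Rplp0 and Rpsa, and after quantile normalization for 1, Rplp0.

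For several members a probe other than the brightest was called lower while the brightest was not, among them Rpl7, Rpl14, Rpl22, Rpl23, Rpl27a, Rps3 and Rps6. How often this happened over all genes is not given here. The largest of these falls were those of the dim Rps3 probe at -0.39 (adjusted p = 0.0064, its brightest probe at -0.094) and the dim Rpl22 probe at -0.32 (adjusted p = 0.0060, its brightest at -0.040). Both held after quantile normalization, at -0.35 and -0.27. Rps15a went the other way, with bright probes at -0.082 and -0.065 and a dim one at 0.46 (adjusted p = 0.030). Which transcripts the dim probes read was not tested. When a gene was read from the mean of its probes instead of its brightest probe, 26 members fell and 2 rose. That is 30.2% of the members lower, above the 19.9% of all genes in that setting, whereas the share read from the brightest probes was below that of all genes.

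**Figure D5:**
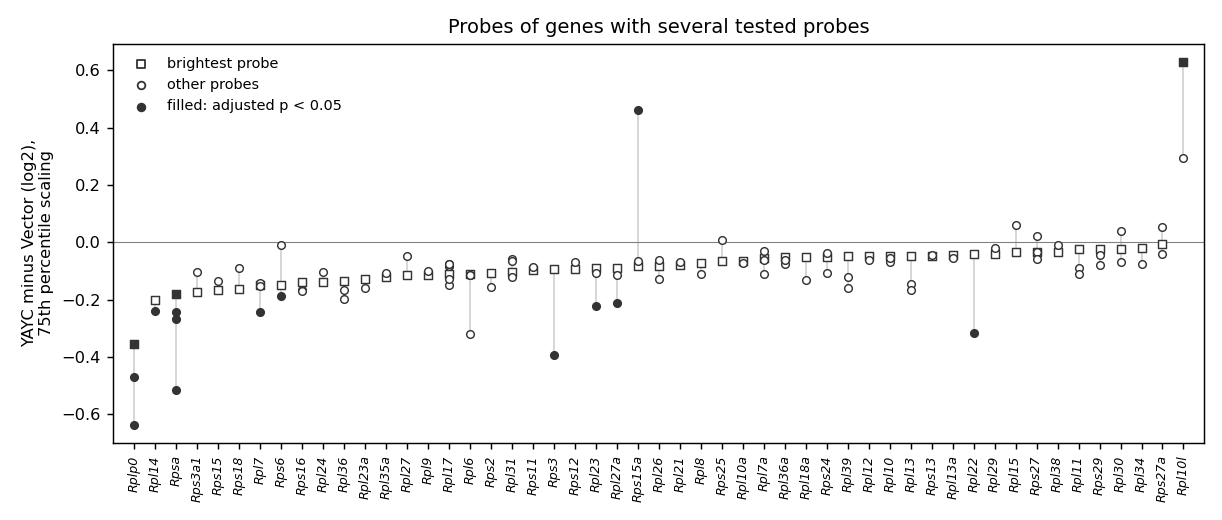
Change of every tested probe (YAYC minus Vector, log2, 75th percentile scaling) for members with several probes, ordered by their brightest probe (squares; other probes are circles, and filled symbols have an adjusted p under 0.05). All probes of Rplp0 and Rpsa are filled and below 0, most other genes hold tightly grouped open symbols between -0.2 and 0, and single probes of Rps3, Rpl22 and Rps15a stand far from their group.

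The letters of the NF-Y motif were found in a smaller share of the members' promoter windows than of all windows. RefSeq promoter windows were found for 65 of the 86 members, and Rplp1 was among those without one. Of the 77 windows, 23 (29.9%) held CCAAT or ATTGG, against 37.4% of all 32851 windows in the table. The 20 members with the letters had a median change of -0.090 and the 45 without them of -0.083, and after quantile normalization -0.0049 and 0.0019. After 75th percentile scaling 5 of the 20 fell (Rplp0, Rpsa, Rps4x, Rps27l and Rps23rg1) and 2 of the 45 (Rpl28 and Rps7). After quantile normalization it was 2 of 20 and 2 of 45. Over all genes 15.8% were lower after 75th percentile scaling and 15.5% after quantile normalization. These are descriptions, and a match in the window does not show binding.

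A pyrimidine run of at least 7 letters across the annotated start was found in 20 of the 77 windows (26.0%), against 5.28% of all windows. The 20 members with it had a median change of -0.085, close to the -0.083 of the 45 without it. Of the 20, 2 fell (Rpl28 and Rps23rg1), beside 5 of the 45 and 15.8% of all genes. None with the run rose, and their changes lay between -0.35 and -0.022. After quantile normalization they lay between -0.27 and 0.070, with 9 of 20 above 0 and 0 called higher. The run depends on the annotated start, also counts letters before it, and need not begin the mRNA with a C. A window without it does not show that the mRNA lacks a TOP tract, so the split is not one by TOP tract.

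Genes around the ribosome were counted in lists of the same pathway. Of 6 genes for partners of the ribosome 0 passed in limma (1 lower and 0 higher at an unadjusted p under 0.05), and Tpt1 and Rack1 changed by -0.12 and -0.046 (adjusted p = 0.11 and 0.45), and by -0.028 and 0.032 after quantile normalization. Of 17 measured translation factors and other genes with TOP mRNAs, 2 fell, Eif3k (-0.25, adjusted p = 0.032), a subunit of initiation factor eIF3, and the RNA-binding protein gene Hnrnpa1 (-0.23, adjusted p = 0.049). After quantile normalization 1 fell, Eif3k, and 2 rose, Eif4b among them (0.23, adjusted p = 0.022; 0.17 and adjusted p = 0.051 after 75th percentile scaling). Over all genes 15.8% were lower and 15.7% higher, and 15.5% and 18.6% after quantile normalization. The median of this list was -0.048, and 0.048 after quantile normalization. With the slide row as a block neither Eif3k nor Hnrnpa1 passed (adjusted p = 0.19 and 0.27), nor with the spike-in scaling (adjusted p = 0.088 and 0.14).

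The lists of genes that make ribosomes were counted beside the 15.7% higher and 15.8% lower over all genes. Of 12 measured genes of RNA polymerase I and its factors, 4 rose and 0 fell in limma (1 lower and 5 higher at an unadjusted p under 0.05), namely Taf1d (0.54, adjusted p = 0.0028), Polr1b (0.35, adjusted p = 0.0092), Taf1c (0.22, adjusted p = 0.032) and Taf1a (0.31, adjusted p = 0.039). Taf1a, Taf1c and Taf1d encode parts of the selectivity factor of the polymerase and Polr1b a core subunit. Taf1b, the other Taf1 gene of the list, went the other way, with a change of -0.24 that missed the threshold (adjusted p = 0.11). After quantile normalization Taf1b changed by -0.25, and its YAYC arrays lay below its Vector arrays under both scalings. The median of the list was 0.10, and 5 rose after quantile normalization. Of 43 ribosome biogenesis genes 8 rose and 2 fell, with a median of 0.045, and 12 rose and 2 fell after quantile normalization, against 18.6% higher and 15.5% lower over all genes. Rrp9 (0.43, adjusted p = 0.0030) and Rrp7a (0.35, adjusted p = 0.0077), both of the small subunit processing pathway, rose. Riok1, a kinase of late small subunit maturation, fell by 0.49 (adjusted p = 0.0081). With the slide row as a block Taf1d and Rrp9 still passed (adjusted p = 0.041 and 0.028), and Polr1b, Taf1c, Rrp7a and Riok1 did not (adjusted p = 0.067, 0.090, 0.056 and 0.070). Scaling to the median of the spots, which moved the median of all genes to -0.11, ended the calls of Polr1b, Taf1c, Rrp9 and Rrp7a (adjusted p = 0.15, 0.46, 0.063 and 0.13), with Taf1c at 0.10. Taf1c also missed the threshold with the spike-in scaling (adjusted p = 0.065). Whether these lists differed from the ribosomal protein genes was not tested.

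Of 12 genes that control TOP mRNAs and Rps6 phosphorylation, 2 rose and 2 fell, beside 15.7% higher and 15.8% lower over all genes. Tsc1, a brake on mTOR, fell most (-0.64, adjusted p = 0.0016), and it was past 1.5-fold under both scalings. Rps6kb1, the S6 kinase gene, rose at its brightest probe (0.17, adjusted p = 0.035), while the mean of its probes changed by -0.071 (adjusted p = 0.12). Eif4ebp1, which encodes an inhibitor of cap-dependent translation, fell (-0.24, adjusted p = 0.040) but did not pass after quantile normalization (adjusted p = 0.068). In the Myc group, Mycn, the Myc gene of neuroblastoma and a known activator of ribosome production, fell by 0.69 (adjusted p = 0.0049). Mxd1, a Myc antagonist, rose by 0.61 (adjusted p = 0.0029), and Mnt changed by 0.083 (adjusted p = 0.20). Myc and Max did not pass, with changes of 0.043 and -0.10 (adjusted p = 0.59 and 0.26), and of 0.099 and -0.055 after quantile normalization. After quantile normalization Tsc1, Mycn, Mxd1 and Mnt changed by -0.62, -0.66, 0.60 and 0.14. With the slide row as a block Tsc1 and Mxd1 passed (adjusted p = 0.023 and 0.039), and Mycn, Rps6kb1 and Eif4ebp1 did not (adjusted p = 0.054, 0.19 and 0.23). Rps6kb1 and Eif4ebp1 also missed the threshold with the spike-in scaling (adjusted p = 0.16 and 0.099), and Rps6kb1 with scaling to the median (0.058, adjusted p = 0.65).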

How the data were processed

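RNA of 3 YAYC and 3 Vector samples, grouped by sample title, was measured on 6 arrays of 1 slide. The authors scanned the arrays with Feature Extraction 10.10.1.1, and the deposited intensity values are processed signals on a linear scale. The deposited series matrix holds log2 values, whose differences between arrays matched the main scaling to within 0.0076 over 43557 probes. Per the paper's methods, GeneSpring GX was used and genes under the 20th percentile were removed, with no test stated.

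Control spots and outlier spots were left out, log2 intensity minus the array's 75th percentile was taken, spots of a probe were averaged, and probes at or above the 20th percentile on all 3 arrays of a group were kept. Of 55681 probes, 245 were incomplete, and 42126 were tested with limma 3.58.1 in R 4.3.3 (two-sided, Benjamini-Hochberg over all probes, no covariate). The fit was tested on simulated data. Probes were named through RefSeq accessions (GRCm38.p6, 26582 probes matched), and a gene was read from its brightest tested probe. Members, lists and tests were chosen with earlier results of these data known. The genes named were Nfya and Nfyc, the 10 members with the largest change in each direction (as few were above 0, those closest to 0 from below filled that list), members called under both scalings, paralogue pairs, the stalk, Rpsa, Rps6, Rpl5, Rpl11 and 3 genes per related list. Some items are not reported here. Taf1a, Taf1b, Myc, Max, Nfyb and probes outside this rule were named after their values were seen.

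On each array 61.9% to 66.2% of probes were well above background, and the 75th percentile of the intensity lay between 718 and 754. The number of arrays limits the precision. Alternatives were other scalings, the spike-in spots, normexp with an offset of 50, the series matrix, filters on dim probes, variance models, blocks, averaged probes and the omission of each array in turn. Normexp used the median signal and median background, since the mean signal was not in the tables. Array levels correlated at 0.989 to 0.994 within and 0.987 to 0.990 between groups. Figures were drawn with matplotlib 3.10.9 in Python 3.11.15.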

Additional observations from a re-analysis of the deposited data

How the results depend on the processing

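The values in the main setting were 8 members lower and 1 higher at an adjusted p under 0.05, 1 of them past 1.5-fold, a median change of -0.089, a large minus small difference of 0.010, and 52 members with separated arrays lower and 3 higher. Over all genes 27.1% had separated arrays lower and 27.7% higher in the main setting, and 25.6% and 30.5% after quantile normalization. For the other scalings and for the omission of arrays that share is not given here. Their separated counts are therefore not set against all genes. The scalings gave different values. Quantile normalization gave 5 lower, 2 higher, 0 past 1.5-fold, a median of -0.0033 and 16 and 14 separated. Cyclic loess gave 5 lower, 2 higher, a median of -0.0098 and 18 and 14 separated, where 16.0% of all genes were lower and 17.5% higher. Normexp with quantile normalization gave 4 lower, 3 higher, 0 past 1.5-fold, a median of 0.0010 and 19 and 8 separated. In that setting 16.7% of all genes were lower and 20.7% higher. Scaling to the median of the spots moved the median of all genes to -0.11 and gave a member median of -0.21, 0 past 1.5-fold and 1 separated higher. The spike-in spots gave 3 lower (3.49%, against 9.30% of all genes) and 23 separated lower. The cause of these differences was not tested.

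Without a filter on dim probes 4 members fell (4.65%, against 10.3% of all genes). Among probes well above background on all 6 arrays 14 fell (16.5%, against 21.8%) and 2 rose (2.35%, against 21.7%). An intensity trend in the variance gave 30 lower and 2 higher, so that 34.9% of the members were lower against 20.9% of all genes, the reverse of the order in the main setting (9.30% against 15.8%). The mean of a gene's probes gave 26 lower (30.2%, against 19.9% of all genes), 2 higher, 0 past 1.5-fold and a large minus small difference of -0.0045, and it turned Rps6kb1, the S6 kinase gene, from 0.17 to -0.071. With the slide row as a block, 0 fell, 0 rose and 0 passed 1.5-fold in limma, where 999 and 902 of all genes still passed. With quantile normalization and the slide row block, chosen after seeing the data, the counts were again 0, 0 and 0, with a median of -0.0045. Leaving out 1 array gave 1 to 6 lower (3 without Vector 1, 1 without Vector 2, 3 without YAYC 1, 4 without YAYC 2 and 1 without YAYC 3), 0 to 1 past 1.5-fold (0 without Vector 2) and 3 to 5 separated higher (5 without YAYC 3). With 1 array left out, 10.4% to 12.7% of all genes were lower. The series matrix and array weights left every count above within 1.5 times. Rplp0, Rpl28, Rps7, Rplp1 and Rps23rg1 kept their direction under all 21 alternatives and passed in 17, 18, 13, 13 and 10 of them, and Rpl10l kept its direction in 21 and passed in 19. No spot was saturated, so leaving out saturated members altered nothing.

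The replicate numbers were checked as a pairing. Deviations from the group mean of same-numbered arrays correlated at 0.018, 0.067 and 0.0025, so the numbers were taken as names. With the replicate block 3 members fell and 1 rose (3.49% and 1.16%, against 9.72% and 8.05% of all genes). With quantile normalization and the replicate block, chosen after seeing the data, 1 fell and 0 passed 1.5-fold, with a median of -0.0033 and 16 and 14 separated.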
